A study of Mus musculus with 6 samples.

Results

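Complement is the set of blood and tissue proteins that marks microbes and dying cells for removal, and 9 of its genes were followed here through RNA libraries of a mouse spermatogonial stem cell line. The members were the 3 genes of the C1q chains (C1qa, C1qb and C1qc), the proteases C1ra and C1s1, the components C3 and C4b, the protease Cfb and the inhibitor Serping1. They were taken by symbol from a list of names, not by their values, and matched 9 of the 31384 genes counted. The design has 3 groups of 2 libraries, all collected on day 18, and all grown on mouse embryonic fibroblast feeders whose division had been stopped with mitomycin C. In the LOVA group 5 uM lovastatin, a statin that blocks cholesterol and isoprenoid synthesis, took the place of GDNF, the niche factor that sustains self-renewal of these cells. The NTC group received neither lovastatin nor GDNF, and the PTC group received 10 ng/mL GDNF. Medium of every group also held 10 ng/mL EGF, 10 ng/mL FGF2, 5000 U LIF and 1% serum. The labels do not say whether feeders were removed before RNA was taken, whether the line is a clone, or whether a group's libraries are separate cultures; p-values therefore measure the spread between these libraries, which may be technical.

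The classical pathway begins when C1q, built from A, B and C chains, binds antibody or other ligands on a surface and lets the bound proteases C1r and C1s activate in turn. C1s then cleaves C4 and C2, which leads to cleavage of C3, the protein on which all complement pathways converge, while factor B (Cfb) supplies the protease of the alternative pathway. C1 inhibitor (Serping1) is a serpin that inactivates C1r and C1s. The liver makes most plasma complement, but C1q is made chiefly by macrophages and related myeloid cells, whereas fibroblasts are known to make C1r, C1s, C1 inhibitor, C3 and C4, so the members are described below in those blocks.

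The C1q genes lie side by side on the minus strand of chromosome 4 in GRCm38 (GENCODE M21), C1qb at chr4:136880129-136886187, C1qc at chr4:136889804-136893065 and C1qa at chr4:136895917-136898803. C1ra (chr6:124512405-124523443, plus strand) and C1s1 (chr6:124530345-124542359, minus strand) are also neighbours. C4b (chr17:34728380-34743882), Cfb (chr17:34856374-34862518) and C3 (chr17:57203970-57228136) lie on the minus strand of chromosome 17, and Serping1 lies on that of chromosome 2 (chr2:84765387-84775444). All 9 are protein-coding. Some of their transcript sequence is shared with near copies, so that counts of those genes are uncertain: of all 75-base windows, C1ra shared 40.1% with C1rb, C4b shared 22.7% with C4a and C1s1 shared 13.0% with C1s2. The C1q chains shared none with each other. The spans of C1s1 (Gm16567), C3 (Mir6978) and Cfb (Gm20547 and Mir6972) also overlap other annotated genes. Any effect on their counts was not tested.

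Promoter sequence was found in the RefSeq table (GRCm38.p6) for 5 of the 9 members, in 6 windows of 250 bases upstream of a RefSeq start. Each window was searched on both strands for 6 short words: GAAANNGAA (core of the interferon response element), TTCNNNGAA (STAT site), GGGANNTTC (NF-kB), TTGCNNAA (C/EBP), AGGAAGT (PU.1, an ETS factor of the myeloid lineage) and TATAAA (core promoter box). The 4 members with any match are shown. C1qb and C1qc held the PU.1 word and C1s1 and C3 the C/EBP word, a division noted after the search. C1qa, C4b, Cfb and Serping1 had no window and were not searched, so the division cannot be extended to them. Capitals mark the matched word, bases outside the GENCODE gene only are printed, and each sequence runs 5′ to 3′ on the minus strand.
C1qb, chr4:136886201-136886450: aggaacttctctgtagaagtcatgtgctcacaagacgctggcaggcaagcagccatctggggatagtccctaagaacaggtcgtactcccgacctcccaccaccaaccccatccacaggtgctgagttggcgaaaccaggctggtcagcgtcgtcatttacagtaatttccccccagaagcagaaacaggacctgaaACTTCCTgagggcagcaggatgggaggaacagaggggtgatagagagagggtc
C1qc, chr4:136893066-136893164: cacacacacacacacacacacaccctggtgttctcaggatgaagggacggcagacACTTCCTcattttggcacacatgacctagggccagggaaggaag
C1s1, chr6:124542360-124542609: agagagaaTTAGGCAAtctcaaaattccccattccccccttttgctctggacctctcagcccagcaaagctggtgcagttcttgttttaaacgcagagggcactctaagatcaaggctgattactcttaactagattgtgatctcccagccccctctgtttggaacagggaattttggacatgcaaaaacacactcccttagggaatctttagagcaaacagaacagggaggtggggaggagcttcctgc
C3, chr17:57228137-57228386: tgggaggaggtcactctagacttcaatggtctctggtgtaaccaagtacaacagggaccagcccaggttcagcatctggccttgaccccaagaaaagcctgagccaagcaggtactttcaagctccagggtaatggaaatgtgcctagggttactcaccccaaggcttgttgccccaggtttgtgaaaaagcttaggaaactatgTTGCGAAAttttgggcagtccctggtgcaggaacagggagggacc
The PU.1 word stood in C1qb (bases -53 to -47 from the RefSeq start) and C1qc (bases -195 to -189), in both as ACTTCCT, its reverse complement. It is present in 7.69% of the 32851 windows of that length in the table. The C/EBP word stood in C1s1 (bases -242 to -235) and C3 (bases -45 to -38), and in 9.56% of all windows. No word matched in the window of C1ra or in the other window of C1s1, from the RefSeq start at base 124542321, and no match overlapped another. The other words were found in 7.13% (interferon response core), 7.02% (STAT), 3.23% (NF-kB) and 12.4% (core promoter box) of windows. A match is a run of letters and does not show that a factor binds there.

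Library totals ranged from 12454671 to 22668087 counts, and levels are given as CPM (a gene's counts relative to the library total, scaled by TMM). A floor of 3 counts is 0.132 to 0.241 CPM by library, for counting error only. The labelled cell type was checked with 16 germ cell markers, of which none was at 0 in any library, with a summed level of 3197 and 1867 CPM in the LOVA libraries A and B, 2737 and 1939 CPM in NTC, and 4661 and 4766 CPM in PTC. RNA of 16 fibroblast markers was present throughout, none at 0, and whether all of it came from the feeders was not tested. These markers summed to 11728 and 24877 CPM in LOVA, 13737 and 24235 CPM in NTC, and 924 and 4554 CPM in PTC. Macrophage markers, 12 genes with none at 0, summed to 418 and 552 CPM in LOVA, 1923 and 2622 CPM in NTC, and 271 and 238 CPM in PTC, although the labels name no macrophage. Sertoli markers summed to 16.4 to 69.2 CPM with Fshr at 0 in every library, Leydig markers to 5.3 to 8.0 CPM, endothelial markers to 13.0 to 23.6 CPM, and hepatocyte markers to 0.213 to 3.42 CPM with Ttr and Serpina1a at 0 in every library.

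The C1q genes stood high in the NTC cultures, with neither GDNF nor lovastatin, and low in both other groups. C1qb, which encodes the B chain, had 12.4 and 17.5 CPM in LOVA libraries A and B, 78.6 and 90.7 CPM in NTC, and 9.41 and 9.55 CPM in PTC. C1qa, the A chain, had 13.5 and 18.9 CPM in LOVA, 69.0 and 85.6 CPM in NTC, and 14.2 and 11.9 CPM in PTC. C1qc, the C chain, had 8.62 and 14.9 CPM in LOVA, 63.1 and 84.9 CPM in NTC, and 13.8 and 9.46 CPM in PTC. For each chain the NTC libraries lay above the other 4, whereas the LOVA and PTC libraries overlapped for C1qa and C1qc and lay close together for C1qb. In bulk RNA, fewer cells of a type and less RNA per cell cannot be told apart.

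**Figure D1:**
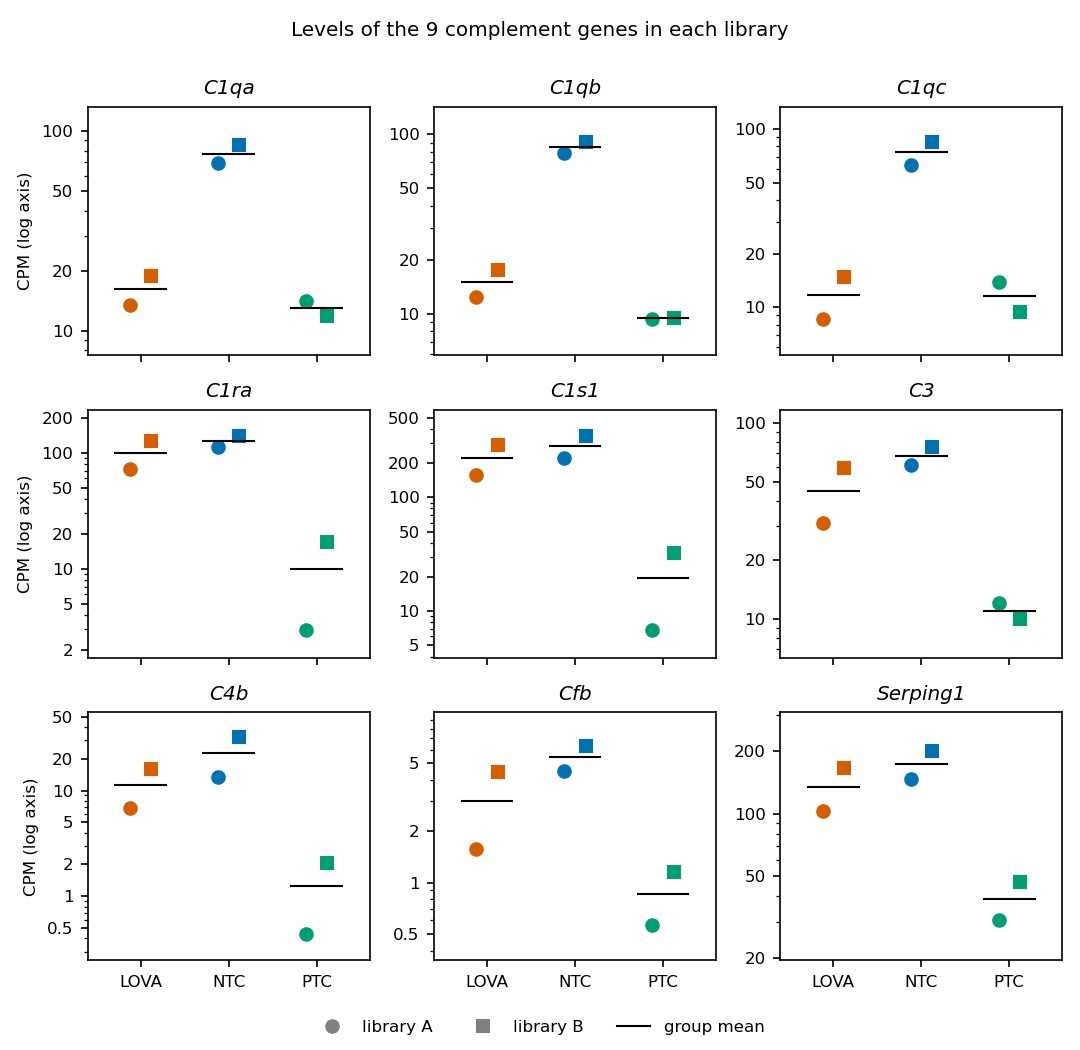
CPM (TMM-scaled, log axis) of each of the 9 complement genes in the LOVA, NTC and PTC libraries; circles are libraries A, squares are libraries B and bars are group means. The C1q genes are high in NTC alone (C1qb at 78.6 and 90.7 CPM), while C1ra and C1s1 are high in LOVA and NTC and lower in PTC; scaled to fibroblast markers instead, the fitted C1q changes of NTC over PTC turn negative without passing, and the libraries overlap.

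With lovastatin added to medium lacking GDNF, mean C1qb was 15.0 ± 3.64 CPM in LOVA and 84.6 ± 8.60 CPM in NTC (SD, n = 2 each), a ratio of 0.177. The log2 fold change of LOVA over NTC was -2.50 for C1qb (SE 0.24, 95% interval -3.07 to -1.94), -2.26 for C1qa (SE 0.25, interval -2.86 to -1.66) and -2.66 for C1qc (SE 0.35, interval -3.49 to -1.83). None passed edgeR's quasi-likelihood test, in its legacy form, after Benjamini-Hochberg adjustment over 16121 genes. The adjusted p was 0.0589, 0.0620 and 0.103 in that order. No gene of the table passed that form in this contrast (0% higher and 0% lower), and 561 genes (3.48%) had an unadjusted p under 0.05, the 3 C1q genes among them. The current form of edgeR's test called C1qb lower (adjusted p = 0.0432), with 12 of the 16121 genes called lower. By unadjusted p, C1qb ranked at position 3, C1qa at 13 and C1qc at 21 of all genes tested. DESeq2 called all 3 lower, where it called 0.589% of genes lower. The legacy form of edgeR's test did so without a filter on low counts, with 147 of 24026 genes lower. The adjusted p of limma-voom was 0.0420 for C1qb, 0.0541 for C1qa and 0.0706 for C1qc, with 0.0248% of genes called lower. Over all alternatives tried, from other tools and filters to other scalings and leaving out each library, the adjusted p ranged from 1.46e-14 to 1 for C1qb. Scaled to the summed macrophage markers, the fold change of C1qb was -0.30 and those of C1qa and C1qc were -0.04 and -0.45, under a shift of 2.23 in the median of all genes.

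Between the cultures without and with GDNF, all 3 C1q genes rose in NTC relative to PTC with TMM scaling, by log2 fold changes of 3.16 for C1qb (SE 0.24, adjusted p = 0.00795), 2.57 for C1qa (SE 0.26, adjusted p = 0.00795) and 2.67 for C1qc (SE 0.35, adjusted p = 0.00870), and all 3 turned negative when libraries were scaled to fibroblast markers, C1qa and C1qc also when scaled to macrophage markers. In this contrast edgeR called 21.5% of genes higher and 12.9% lower, so a call alone is common. Without NTC B, 0 of the 9 members passed edgeR's test although all 9 had an unadjusted p under 0.05, with C1q fold changes of 2.41 to 3.05, and only 1 gene of the whole table did. Scaling to fibroblast markers moved the median of all genes by -3.50 and gave C1qa -1.06, C1qb -0.37 and C1qc -1.06, none past the threshold.

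With lovastatin in place of GDNF, none of the C1q genes passed the test in LOVA relative to PTC under TMM scaling. The log2 fold change was 0.31 for C1qa (95% interval -0.28 to 0.90, adjusted p = 0.354), 0.66 for C1qb (interval 0.10 to 1.21, adjusted p = 0.070) and 0.01 for C1qc (interval -0.79 to 0.82, adjusted p = 0.977). These intervals stop short of the estimates for C1ra, C1s1 and C3 in the same contrast, given below; the difference between genes was not tested. C1qb alone was higher in both LOVA libraries than in both PTC libraries. It passed the test without LOVA A, at a log2 fold change of 0.88 (adjusted p = 0.0191), and with scaling to germ cell markers, at 1.71 (adjusted p = 0.0468). Under fibroblast scaling all 3 chains were called lower, C1qa at -3.23, C1qb at -2.79 and C1qc at -3.67, where 11307 of the 16121 genes were called lower and the median of all genes was -3.35.

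The proportions of the chains varied far less than their level. Per kilobase of transcript, C1qa, C1qb and C1qc made up 40.0%, 35.4% and 24.6% of the C1q level in LOVA, 34.8%, 36.5% and 28.7% in NTC, and 40.6%, 28.4% and 31.0% in PTC, as means of 2 libraries. C1qc was the lowest chain in LOVA and NTC, and C1qb was the lowest on average in PTC. The counts behind this are small where C1q was low: 121 to 220 counts per chain and library in LOVA and 150 to 280 in PTC, against 792 to 1407 in NTC.

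C1ra and C1s1, the proteases that C1q carries, followed another order, with LOVA near NTC and both far above PTC. C1s1 had 157 and 289 CPM in LOVA libraries A and B, 222 and 347 CPM in NTC, and 6.77 and 32.6 CPM in PTC. C1ra had 72.5 and 126 CPM in LOVA, 111 and 139 CPM in NTC, and 2.95 and 17.0 CPM in PTC. The LOVA and NTC libraries overlapped for both genes, every PTC library lay below them, and the PTC libraries differed from each other about as their fibroblast marker sums did (924 and 4554 CPM). Per kilobase, C1s1 exceeded C1ra by 2.26 ± 0.101 times in LOVA, 2.28 ± 0.368 times in NTC and 2.13 ± 0.271 times in PTC (SD, n = 2 each).

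Lovastatin added without GDNF gave C1s1 a log2 fold change over NTC of -0.35 (SE 0.68, 95% interval -1.999 to 1.29) and C1ra one of -0.34 (SE 0.69, interval -1.996 to 1.32), both with an adjusted p of 1 in edgeR's test. These wide intervals stop short of the C1q estimates of -2.26 to -2.66 and leave room for a smaller change either way. Between NTC and PTC, C1s1 rose by 3.84 on the log2 scale (SE 0.76, adjusted p = 0.0169) and C1ra by 3.63 (SE 0.77, adjusted p = 0.0193) under TMM scaling, and under fibroblast or macrophage scaling both stayed positive, at 0.42 to 1.07, without passing. With lovastatin in place of GDNF, C1s1 rose over PTC by 3.49 (SE 0.75, adjusted p = 0.0240) and C1ra by 3.29 (SE 0.76, adjusted p = 0.0266). Here 19.8% of all genes were called higher and 10.8% lower. Both genes missed the threshold in NTC relative to PTC without LOVA A (adjusted p = 0.0889 for C1ra and 0.0792 for C1s1), without LOVA B, without NTC B, and when only those 4 libraries were fitted. In LOVA relative to PTC both missed it without LOVA A or without LOVA B, and C1ra also without NTC A (adjusted p = 0.0514) or NTC B (adjusted p = 0.0571) and when only those 4 libraries were fitted (adjusted p = 0.0510). Under fibroblast scaling both missed it there too, at 0.70 for C1ra and 0.78 for C1s1.

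Serping1, the gene of the C1 inhibitor, had 103 and 166 CPM in LOVA, 146 and 201 CPM in NTC, and 30.7 and 46.8 CPM in PTC. Its LOVA and NTC libraries overlapped and its PTC libraries lay below. In NTC relative to PTC it had the smallest log2 fold change of the 9 members, 2.16 (SE 0.32, adjusted p = 0.00982) under TMM scaling. It was -1.20 under fibroblast and -1.02 (adjusted p = 0.0179) under macrophage scaling, where the medians of all genes were -3.50 and -3.15. Macrophage scaling called 13856 of 16121 genes lower there. Serping1 had 1.80 in LOVA relative to PTC (SE 0.32, adjusted p = 0.0172), which was -1.49 under fibroblast scaling. It had -0.37 in LOVA relative to NTC (SE 0.31, adjusted p = 1). It missed the threshold in NTC relative to PTC without NTC B (adjusted p = 0.0665), and in LOVA relative to PTC without LOVA B (adjusted p = 0.0557) or PTC A (adjusted p = 0.0632). Per kilobase, the level of C1s1 was 0.908 and 1.04 times that of Serping1 in LOVA, 0.910 and 1.04 times in NTC, and 0.133 and 0.419 times in PTC. The protease and its inhibitor were thus at like RNA levels in LOVA and NTC, while the inhibitor exceeded the protease in both PTC libraries.

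C3, the central component, had 30.8 and 58.8 CPM in LOVA, 60.8 and 75.7 CPM in NTC, and 12.04 and 10.02 CPM in PTC. C4b, which C1s cleaves, had 6.77 and 16.0 CPM in LOVA, 13.5 and 31.7 CPM in NTC, and 0.439 and 2.05 CPM in PTC, where it rested on 7 and 48 counts. Cfb, the protease of the alternative pathway, had 1.57 and 4.47 CPM in LOVA, 4.54 and 6.32 CPM in NTC, and 0.564 and 1.15 CPM in PTC, on 9 and 27 counts. All 3 were lowest in PTC, and C3 and Cfb were lower in both LOVA libraries than in both NTC libraries, whereas C4b overlapped between those groups. Without GDNF all 3 rose in NTC relative to PTC under TMM scaling, C4b by 4.12 (SE 0.81, adjusted p = 0.0157), C3 by 2.63 (SE 0.34, adjusted p = 0.00870) and Cfb by 2.62 (SE 0.64, adjusted p = 0.0237), while C3 and Cfb turned negative under fibroblast or macrophage scaling. Relative to PTC, C4b rose in LOVA by 3.12 (SE 0.79, adjusted p = 0.0312) and C3 by 2.02 (SE 0.34, adjusted p = 0.0169), C3 turning negative (-1.60) under fibroblast scaling, and Cfb had 1.77 (SE 0.64, adjusted p = 0.0738). Relative to NTC none passed in LOVA, with -0.61 for C3 (SE 0.32), -0.996 for C4b (SE 0.70) and -0.86 for Cfb (SE 0.60), each at an adjusted p of 1 and each positive under macrophage scaling. Calls of all 3 in NTC relative to PTC were lost without NTC B and that of Cfb also without PTC A (adjusted p = 0.105), and in LOVA relative to PTC that of C4b was lost without LOVA B (adjusted p = 0.191) or PTC A (adjusted p = 0.0912), while Cfb passed without LOVA A (adjusted p = 0.0186), with DESeq2 (adjusted p = 0.0367) and without a filter on low counts (adjusted p = 0.00890). Under fibroblast scaling C4b passed in neither contrast with PTC, at 1.31 in NTC and 0.40 in LOVA.

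Counted over the members, 9 of 9 rose in NTC relative to PTC (21.5% of all genes did) and 5 of 9 (C1ra, C1s1, C3, C4b and Serping1) rose in LOVA relative to PTC (19.8% of all genes) under TMM scaling, with 6 of the 9 negative in both contrasts under fibroblast scaling, and 0 of 9 passed in LOVA relative to NTC. By ranges alone, both LOVA libraries lay below both NTC libraries for 5 members (the C1q genes, C3 and Cfb), as for 13.0% of all genes. Both NTC libraries lay above both PTC libraries for all 9 (39.0% of all genes), and both LOVA libraries above both PTC libraries for 7, all but C1qa and C1qc (38.4% of all genes). The contrasts share libraries, so their values are not independent of each other. Without LOVA B, 8 of the 9 members stayed positive in LOVA relative to PTC, and without PTC A all 9 did. In NTC relative to PTC all 9 stayed positive whichever library was left out. Fewer members passed in LOVA relative to PTC without LOVA B, NTC A, NTC B or PTC A, and fewer genes of the whole table did. The same held in NTC relative to PTC without NTC B or without PTC A. Leaving out LOVA A or LOVA B also left fewer members passing in NTC relative to PTC, but not fewer genes.

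**Figure D2:**
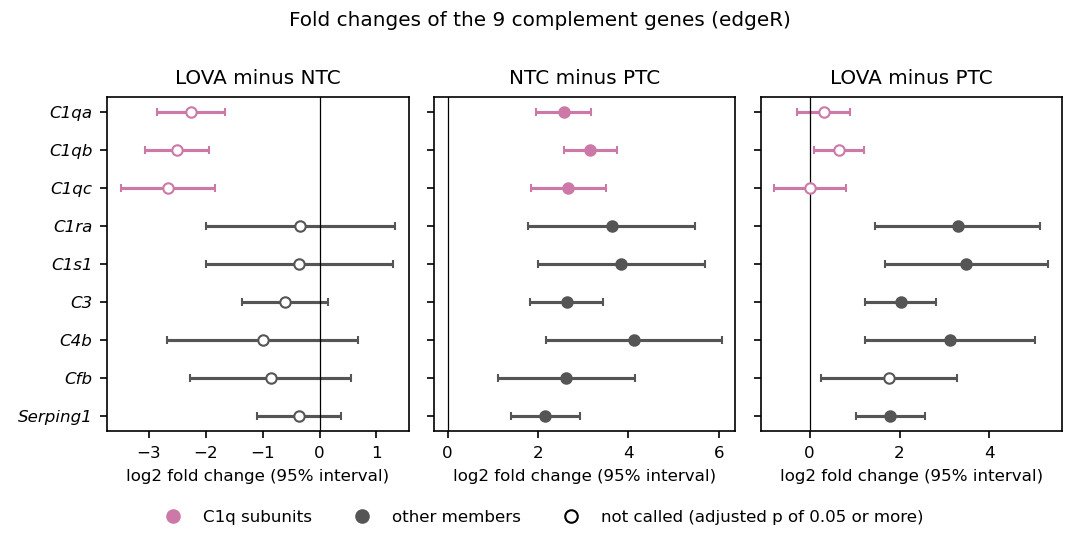
Log2 fold changes (edgeR, TMM scaling, 95% intervals) of the 9 members in LOVA relative to NTC, NTC relative to PTC and LOVA relative to PTC; filled points passed an adjusted p of 0.05, and the C1q subunits are in pink. C1q intervals lie below 0 in LOVA relative to NTC without passing the adjusted threshold and near 0 in LOVA relative to PTC, where C1ra and C1s1 are at 3.29 and 3.49; scaled to fibroblast markers, C1q, C3, Cfb and Serping1 turn negative in both contrasts with PTC.

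A ratio taken within a library does not depend on library scaling. The mean log2 CPM of the 3 C1q genes minus that of C1ra and C1s1 was -3.24 in LOVA A and -3.48 in LOVA B, -1.17 in NTC A and -1.33 in NTC B, and 1.46 in PTC A and -1.20 in PTC B. The LOVA values lay below those of every other library, and the PTC libraries differed from each other by more than the LOVA and NTC groups did. The group means were -3.36 ± 0.17 in LOVA, -1.25 ± 0.12 in NTC and 0.13 ± 1.88 in PTC (SD, n = 2 each). With 2 libraries against 2, an exact two-sided permutation test cannot go below p = 0.333, so the ratio was not tested.

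Levels were ordered per kilobase of the longest coding transcript, in CPM per kilobase. In LOVA the order was Serping1 at 76.3, C1s1 at 75.6, C1ra at 33.2, C1qa at 15.6, C1qb at 13.8, C1qc at 9.76, C3 at 8.73, C4b at 2.12 and Cfb at 1.10. Neighbours overlapped between libraries except C1s1 over C1ra, C1ra over C1qa and C3 over C4b. In NTC it was Serping1 at 98.3, C1s1 at 96.6, C1qb at 77.8, C1qa at 74.3, C1qc at 61.5, C1ra at 41.9, C3 at 13.3, C4b at 4.20 and Cfb at 1.97. The first 5 overlapped with their neighbours, and each later step was apart. In PTC it was Serping1 at 21.9, C1qa at 12.6, C1qc at 9.67, C1qb at 8.71, C1s1 at 6.69, C1ra at 3.35, C3 at 2.15, Cfb at 0.312 and C4b at 0.231. There Serping1 lay apart from C1qa, C1qa from C1qc, and C3 from Cfb, and the other neighbours overlapped. Serping1 thus had the highest mean in all groups, overlapping with C1s1 in LOVA and NTC, while C1q stood above C1ra in NTC and in the PTC means and below it in LOVA.

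Marker genes of other cell types moved with these levels. Between LOVA and NTC the 12 macrophage markers had a median log2 fold change of -2.28, all 12 negative and 0 passing, beside -2.50 for C1qb, 0.01 for all genes and -0.07 for the 16 fibroblast markers. Between NTC and PTC the medians were 3.06 for macrophage markers and 3.01 for fibroblast markers, against -0.02 for all genes. In that order 12 of 12 and 10 of 16 markers passed, where 21.5% of all genes were called higher. Between LOVA and PTC the medians were 0.79 for macrophage markers and 2.94 for fibroblast markers, against 0.00 for all genes. There 2 of 12 and 10 of 16 markers passed, where 19.8% of all genes were called higher. The part of macrophage and fibroblast content in the member values was not tested, since the groups and these contents cannot be told apart.

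Set against macrophage markers, C1q varied much less. Per 1000 CPM of the macrophage marker sum, C1qb had 29.6 and 31.8 CPM in LOVA libraries A and B, 40.9 and 34.6 CPM in NTC, and 34.7 and 40.1 CPM in PTC. C1qa had 32.2 and 34.3 CPM in LOVA, 35.9 and 32.7 CPM in NTC, and 52.3 and 50.1 CPM in PTC. C1qc had 20.6 and 27.0 CPM in LOVA, 32.8 and 32.4 CPM in NTC, and 50.9 and 39.7 CPM in PTC. On this scale all 3 chains were lower in both LOVA libraries than in both PTC libraries, and C1qb and C1qc, but not C1qa, were lower in both LOVA libraries than in both NTC libraries. The sum weighs abundant markers most: the median marker had 7.87 CPM in LOVA A, where the sum was 418 CPM. Single markers had log2 fold changes of 0.13 to 1.58 in LOVA relative to PTC, beside 0.31, 0.66 and 0.01 for C1qa, C1qb and C1qc. Whether the order holds for other markers was not tested. Between NTC and PTC, the NTC libraries lay below for C1qa and C1qc and overlapped with PTC for C1qb.

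Per 1000 CPM of the fibroblast marker sum, C1s1 had 13.4 and 11.6 CPM in LOVA, 16.2 and 14.3 CPM in NTC, and 7.33 and 7.17 CPM in PTC, and C1ra had 6.18 and 5.05 CPM in LOVA, 8.11 and 5.72 CPM in NTC, and 3.19 and 3.73 CPM in PTC. Both stayed lower in both PTC libraries than in any other, by a smaller factor than in CPM. On this scale C1s1 was also lower in both LOVA libraries than in both NTC libraries, whereas C1ra overlapped. C4b had 0.577 and 0.643 CPM in LOVA, 0.98 and 1.31 CPM in NTC, and 0.475 and 0.449 CPM in PTC. C3 had 2.63 and 2.36 CPM in LOVA, 4.43 and 3.12 CPM in NTC, and 13.0 and 2.20 CPM in PTC, and Serping1 had 8.82 and 6.68 CPM in LOVA, 10.7 and 8.30 CPM in NTC, and 33.2 and 10.3 CPM in PTC. For C3 and Serping1, PTC A stood above every other library, the library with the least fibroblast RNA. C4b and C3 were lower in both LOVA libraries than in both NTC libraries, and Serping1 overlapped.

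**Figure D3:**
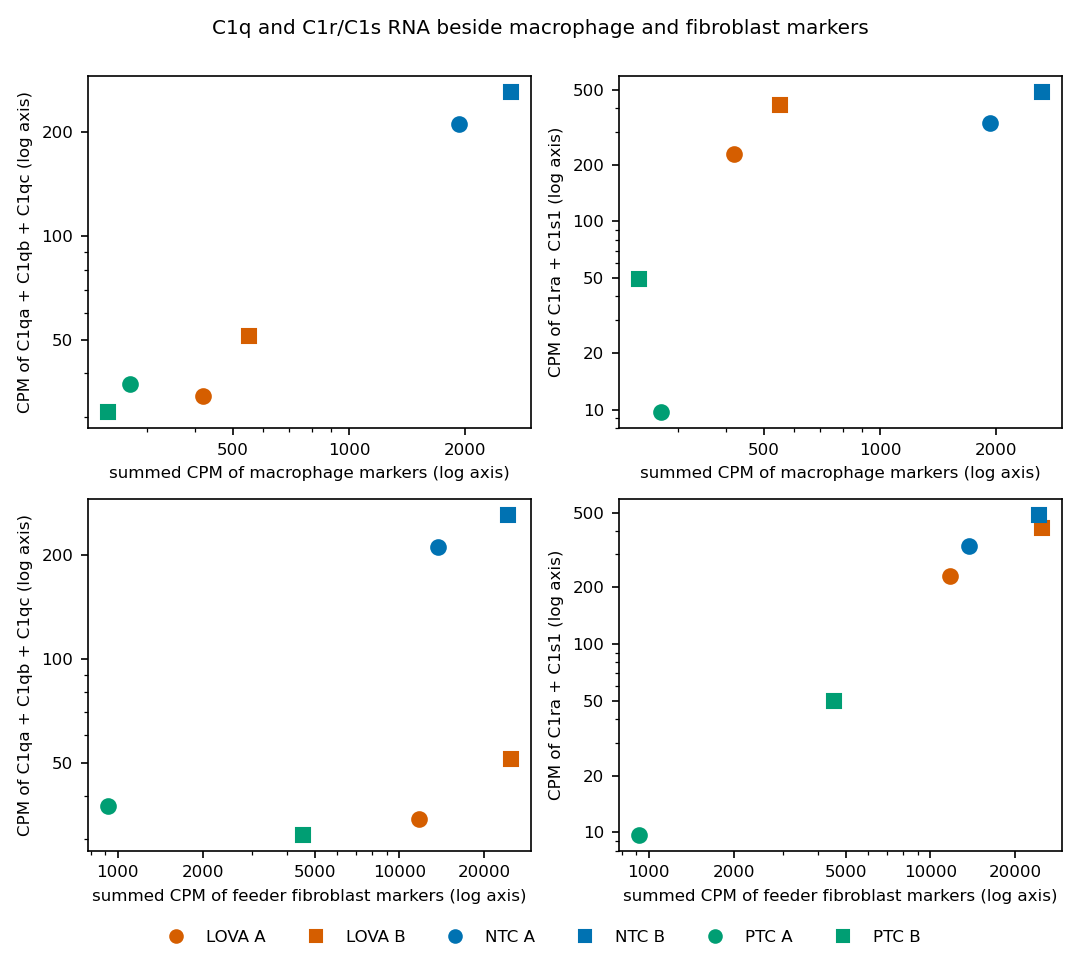
Summed CPM of C1qa, C1qb and C1qc (left) and of C1ra and C1s1 (right) in each of the 6 libraries against the summed CPM of 12 macrophage markers (top) and 16 feeder fibroblast markers (bottom), all on log axes. LOVA libraries sit low in C1q and in macrophage markers (418 and 552 CPM) but high in C1ra plus C1s1 and in fibroblast markers (11728 and 24877 CPM).

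Genes with the profiles most like each member were found among 11304 candidates by the root mean square difference of centred log2 CPM over the 6 libraries. For C1qa these were Laptm5 (0.128), Fcgr3 (0.140) and Itgb2 (0.157), for C1qb Ms4a6d (0.0635), Ctss (0.0900) and Fcgr3 (0.167), and for C1qc Csf1r (0.213), Laptm5 (0.220) and Fcgr3 (0.283). Of these, Laptm5, Ctss and Csf1r are on the macrophage marker list. For C1ra they were Anxa1 (0.0379), Serpina3g (0.0849) and Clec2d (0.0879), and for C1s1 Angpt4 (0.0406), Fhl2 (0.0706) and Srpx2 (0.0756). C1ra and C1s1 differed from each other by 0.130, and C1qa and C1qc by 0.216. For C4b they were Ccdc80 (0.149), Fmod (0.206), a proteoglycan of connective tissue, and Egfl6 (0.215). For Serping1 they were Laptm4b (0.0696), Cndp2 (0.0739) and Lipa (0.0762), for C3 Dnase1l1 (0.147) and Mmp11 (0.154), and for Cfb Gem (0.203), Unc93b1 (0.206) and Il4ra (0.207). No nearest gene of a C1q chain was also nearest to any of the other 6 members. With 3 genes kept of 11304, C1ra and C1s1 shared none either, so this lack of overlap does not set the C1q genes apart.

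The rest of the complement system was read from 5 further lists, of which 30 genes had enough counts to test. Without GDNF, 17 of the 30 rose in NTC relative to PTC (21.5% of all genes did) and 1, Susd4, fell (12.9% of all genes) under TMM scaling. Fibroblast scaling moved the median of all genes by -3.50 and macrophage scaling by -3.15, and among these 18 genes the sign turned for 11 and 12 under them. All 18 calls were lost without NTC B, 8 without PTC A, 6 without PTC B and 3 without NTC A. With lovastatin in place of GDNF, 9 of the 30 rose (19.8% of all genes did) and Susd4 fell (10.8% of all genes) relative to PTC, with 5 of these 10 turning sign under fibroblast scaling, where the median of all genes was -3.35. Without LOVA B, 8 of those 10 calls were lost, and without PTC A 6. Between LOVA and NTC, 0 of 30 passed in edgeR's test and in limma-voom. In edgeR's test 6 had an unadjusted p under 0.05 (3.48% of all genes did). DESeq2 called 3 lower (C3ar1, Cd93 and Itgb2), where it called 0.589% of all genes lower.

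Among the other initiators and proteases, 10 of 15 genes were tested and 6 rose in NTC relative to PTC (21.5% of all genes did), with a median log2 fold change of 2.48 over the 10. Masp1, a protease of the lectin pathway, had 31.8 and 42.3 CPM in LOVA, 42.8 and 60.5 CPM in NTC, and 1.38 and 5.84 CPM in PTC, and rose by 3.80 (SE 0.61, adjusted p = 0.0112) in NTC relative to PTC. C1s2, the near copy of C1s1, rose by 3.71 (adjusted p = 0.0153), C1rb, the near copy of C1ra, by 3.20 (adjusted p = 0.0326), and both keep the doubt over shared reads. C1rl, Fcna and C2 also rose, at 2.62, 2.35 and 1.83. Colec10, a collectin, had 0 counts in both PTC libraries and was at least 7.49-fold higher in NTC, setting the PTC group as a whole at 3 counts, without passing. Relative to PTC, 4 rose in LOVA (Masp1, C1s2, C1rl and C2, at 3.32, 3.24, 2.79 and 1.16), and the median was 1.97, or 1.76 with Colec10 at its bound.

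Of the terminal components, which form the membrane attack complex, 4 of 7 were tested. C7 had 5.70 and 10.1 CPM in LOVA, 8.84 and 22.3 CPM in NTC, and 0.125 and 0.725 CPM in PTC, and rose in NTC relative to PTC by 5.07 (SE 0.79, adjusted p = 0.0102) and in LOVA relative to PTC by 4.08 (SE 0.78, adjusted p = 0.0184). C6 had 18 counts in LOVA, 57 in NTC and 2 in PTC, and passed in NTC relative to PTC (adjusted p = 0.0193), where its fitted change rests on those 2 counts. C8b and C8g did not pass in any contrast. Among soluble regulators, 3 of 9 were tested and 1 rose. Clu, clusterin, which is also on the Sertoli list, had 22.6 and 28.6 CPM in LOVA, 28.0 and 36.6 CPM in NTC, and 2.45 and 4.99 CPM in PTC, and rose by 3.10 in NTC relative to PTC (adjusted p = 0.00859) and by 2.77 in LOVA relative to PTC (adjusted p = 0.0167).

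The list of membrane regulators holds mostly, but not only, genes that protect a cell from its own complement. Of its 11 genes 9 were tested, with 5 higher (21.5% of all genes) and 1 lower (12.9% of all genes) in NTC relative to PTC. The median of the 9 was 1.75. Cd59a, an inhibitor of the attack complex, had 16.7 and 22.6 CPM in LOVA, 16.7 and 20.2 CPM in NTC, and 2.70 and 3.49 CPM in PTC, and rose by 2.57 in NTC relative to PTC (SE 0.31, adjusted p = 0.00859) and by 2.66 in LOVA relative to PTC (SE 0.31, adjusted p = 0.0167). Csmd3 (4.26, on 4 counts in PTC), Cd55 (1.96), Cd93 (1.59) and Cr1l (1.24) also rose in NTC relative to PTC. Susd4 had 25.7 and 15.8 CPM in LOVA, 26.9 and 19.9 CPM in NTC, and 54.4 and 45.7 CPM in PTC, fell by 1.10 in NTC relative to PTC (adjusted p = 0.0303), and did not pass when libraries were scaled to germ cell markers. Cd93, named for its values, had 3.63 and 4.64 CPM in LOVA, 16.6 and 24.8 CPM in NTC, and 8.28 and 5.46 CPM in PTC, and -2.32 on the log2 scale between LOVA and NTC (SE 0.37, adjusted p = 0.198).

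Complement receptors, which sit mainly on myeloid cells, were tested for 4 of 8 genes and had medians of -2.05 in LOVA relative to NTC, 2.77 in NTC relative to PTC and 0.72 in LOVA relative to PTC. Itgb2, the beta chain of complement receptor 3, had 3.20 and 3.87 CPM in LOVA, 13.4 and 18.6 CPM in NTC, and 2.32 and 2.39 CPM in PTC. C3ar1, the receptor of the C3a fragment, had 8.40 and 11.4 CPM in LOVA, 27.4 and 51.3 CPM in NTC, and 5.77 and 5.67 CPM in PTC. Both were highest in the NTC libraries, as the C1q genes were. Between LOVA and NTC they had -2.18 (SE 0.33, adjusted p = 0.168) and -1.99 (SE 0.36, adjusted p = 0.262), and in NTC relative to PTC they rose by 2.76 (adjusted p = 0.00859) and 2.78 (adjusted p = 0.00870). Itgam, the alpha chain, rose by 2.06 in NTC relative to PTC (adjusted p = 0.0200). None of the receptors passed in LOVA relative to PTC.

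**Figure D4:**
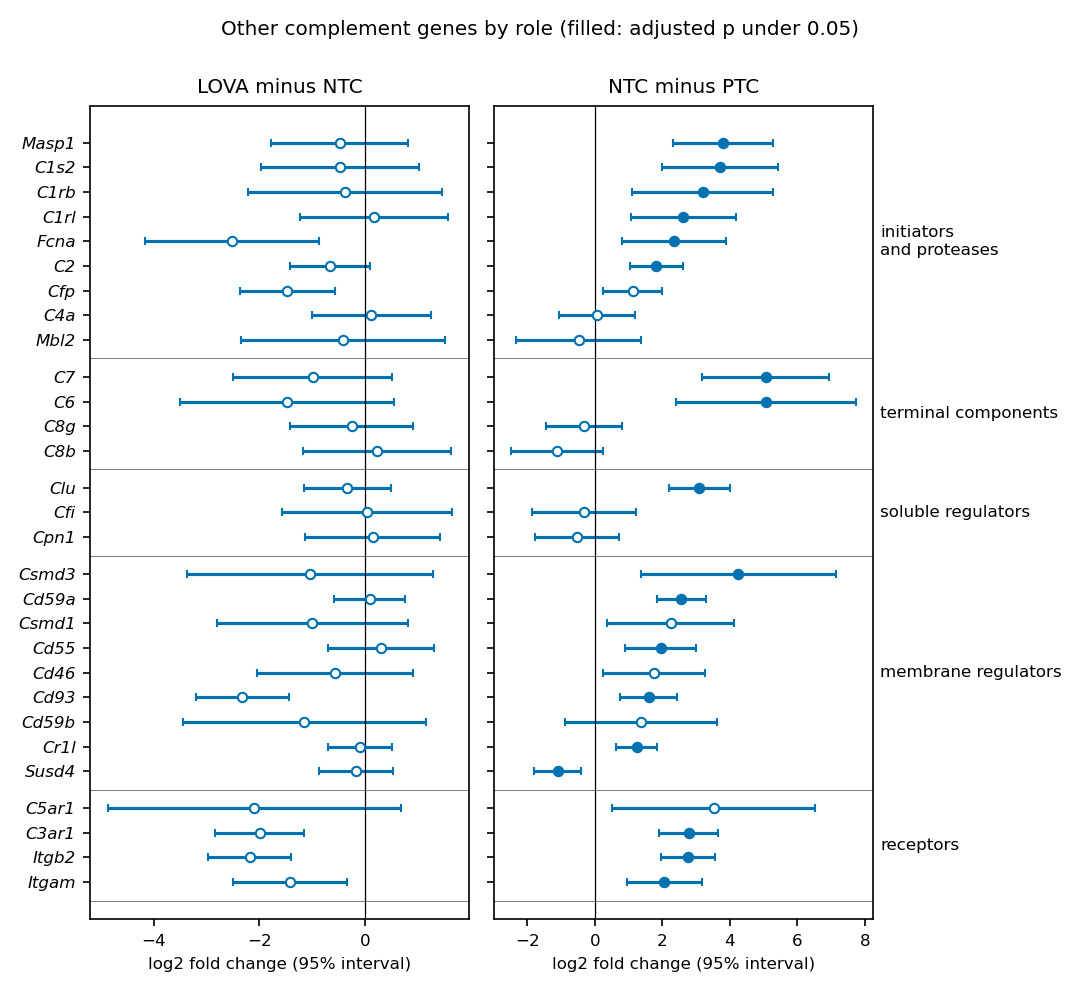
Log2 fold changes (edgeR, TMM scaling, 95% intervals) of 29 other complement genes, grouped by role, in LOVA relative to NTC (left) and NTC relative to PTC (right); filled points passed an adjusted p of 0.05, and Colec10, with 0 counts in PTC, is left out. In LOVA relative to NTC no point is filled, Itgb2, C3ar1 and Cd93 lie at -2.18, -1.99 and -2.32, and Masp1, C7 and the receptor C5ar1 have intervals that include 0; under fibroblast scaling, which moves the median of all genes by -3.50, 11 of the 18 filled points on the right change sign.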

How the data were processed

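Whole-number counts per Ensembl gene were deposited by the authors, with no normalization, in 6 columns named by group and letter; the letters are not tied to the labels' replicate numbers. The submitters' processing notes name Trimmomatic, Bowtie2, RSEM, DESeq2 and mm10, without versions or roles, so the counts may be rounded estimates. Per the labels, the kit keeps strand; whether counting used it is not given in the sources used here. Symbols came from GENCODE M21. Genes were kept by filterByExpr (16121 of 31384, all 9 members included), scaled by TMM and fitted with edgeR 4.0.16 (quasi-likelihood F test, robust, legacy form, 1 coefficient per group, 3 residual degrees of freedom) in R 4.3.3, with Benjamini-Hochberg adjustment over all genes tested and a threshold of 0.05. DESeq2 1.42.0, limma-voom (limma 3.58.1), edgeR's current form, other scalings (size factors, germ cell, fibroblast and macrophage markers), no filter, only the groups compared, a block by column letter, and leaving out each library were the alternatives. Methods were tested on simulated data with less spread between libraries than was fitted here, so that test does not show how they perform on these data. The members, lists, markers and alternatives were chosen with earlier results of these data known. Of each further complement list, up to 3 called genes per direction by fold change were to be named; others named were chosen after their values were seen. A few genes, 1 from these lists among them, are not reported here, and list counts leave it out.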

Additional observations from a re-analysis of the deposited data

How the results depend on the processing

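With 2 libraries a group, calls depended on the tool and on single libraries. In LOVA relative to NTC the number of members called was 0 in the results above. DESeq2 called 3 lower (95 of 16121 genes were lower), and edgeR without a filter on low counts called 3 lower (147 of 24026). Limma-voom called 1 lower (4 of 16121 genes), as did edgeR's current form (12 of 16121). Macrophage scaling called 4 higher, where it called 14819 of 16121 genes higher. A block by column letter called 3 lower in LOVA relative to NTC, with 72 of 16121 genes lower. It called 9 higher in NTC relative to PTC, with 4421 genes higher, and 7 higher in LOVA relative to PTC, with 4280 higher. Differences between libraries A and B correlated across genes at 0.247 to 0.366 between groups, but nothing states that letters pair libraries. In NTC relative to PTC the count was 0 with fibroblast scaling, 1 (Serping1, lower) with macrophage scaling and 0 to 9 leaving out 1 library; in LOVA relative to PTC it was 3 (C1q, lower) with fibroblast scaling, which called 11307 genes lower, and 1 to 5 leaving out 1 library. Scaling to fibroblast markers gave, in NTC relative to PTC, C1qa -1.06, C1qb -0.37, C1qc -1.06, C3 -1.004, Cfb -0.48 and Serping1 -1.20, and in LOVA relative to PTC -3.23, -2.79, -3.67, -1.60, -1.39 and -1.49, with the median of all genes at -3.50 and -3.35. Scaling to macrophage markers gave, in LOVA relative to NTC, C1ra 1.86, C1s1 1.86, C3 1.58, C4b 1.24, Cfb 1.31 and Serping1 1.84 (median of all genes 2.23), in NTC relative to PTC C1qa -0.58, C1qc -0.47, C3 -0.52, Cfb -0.55 and Serping1 -1.02 (median -3.15), and in LOVA relative to PTC C1qa -0.62, C1qb -0.28 and C1qc -0.93 (median -0.91). In NTC relative to PTC, where macrophage scaling called Serping1 lower, it called 13856 of 16121 genes lower. C1qc in LOVA relative to PTC, near 0, was -0.0025 with limma-voom and -0.036 without a filter. It was -0.020 with the letter block and -0.43 to 0.35 leaving out 1 library. Leaving out 1 library in LOVA relative to NTC gave -0.78 to 0.0042 for C1ra and -0.86 to 0.019 for C1s1. The log2 ratio of C1q to C1r and C1s was -2.87 in LOVA and -0.78 in NTC from summed counts, -1.46 in LOVA and 0.39 in NTC against all 6 other members, and -1.20 to 1.46 in PTC leaving out 1 library. Of 144 member values per contrast, direction and side of the threshold held in 124 for LOVA relative to NTC, 110 for NTC relative to PTC and 107 for LOVA relative to PTC. The cause of these changes was not tested. Depth limited C4b and Cfb in PTC, at 7 to 48 counts.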
